A study of Mus musculus with 4 samples.

Results

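The 10 genes described here encode receptors for the constant (Fc) part of antibodies, their shared signalling chain and related Fc-receptor-like proteins: Fcer1g, Fcgr1, Fcgr2b, Fcgr3, Fcgr4, Fcer2a, Fcrla, Fcrl1, Fcmr and Fcgrt. They were chosen by name, with earlier results of the same arrays known, from the 17916 genes of an Illumina MouseRef-8 bead array. All 10 were on the array, read by 19 of its 25697 probes, and Fcmr appeared there under its older name Faim3. The samples were B220+ bone marrow cells of C57BL6/J mice, flushed from tibia and femur and sorted by flow cytometry into CD43- cells (labelled DEF in Hardy's scheme, the pre-B, immature and mature stages) and CD43+ cells (labelled ABC, the earlier pre-pro-B and pro-B stages). The 4 groups were Btg1;Btg2 double-knockout (dKO, Btg1-/-;Btg2-/-) CD43- cells, dKO CD43+ cells, wild-type (WT) CD43- cells and WT CD43+ cells, with 1 array each. Btg1 and Btg2 encode related antiproliferative proteins, and the series title concerns their part in B-lineage commitment through the transcription factor EBF1. The labels and design text are the sources for the samples here. The age, sex and number of the mice, any pooling, and the making of the alleles are not stated in those sources.

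Fc receptors link antibodies to cells. In mice, the IgG receptors encoded by Fcgr1, Fcgr3 and Fcgr4 activate myeloid or NK cells through the FcR gamma chain, the product of Fcer1g, which carries an immunoreceptor tyrosine-based activation motif (ITAM) that recruits the kinase SYK. Fcgr2b encodes the inhibitory IgG receptor, the principal one of B cells, whose inhibitory motif (ITIM) recruits the phosphatase SHIP-1. Fcer2a encodes CD23, the low-affinity IgE receptor of mature B cells, Fcmr the IgM receptor, Fcgrt the heavy chain of the neonatal receptor that recycles IgG, and Fcrl1 and Fcrla encode a surface and an intracellular Fc-receptor-like protein of B cells.

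Values are mean bead signals on the scanner's linear scale with the standard error over the beads of that probe (bead SE), an error of reading the chip that says nothing of the spread between mice. A probe was taken as detected where its detection p was under 0.01. The arrays detected 39.5% to 43.3% of probes, with a median of 38 or 39 beads per probe. Mean signals were 648.1 and 662.1 on the dKO arrays (CD43- first) and 555.2 and 550.7 on the WT arrays, so signals of different arrays are compared below only after normalization, on a log2 scale. With 1 array a group, no difference was tested and none has a replicate check. In bulk RNA, fewer cells of a type and less RNA per cell cannot be told apart.

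The deleted genes were read first. Btg1 gave 8114.9 in CD43- and 3459.3 in CD43+ cells of dKO mice, against 19425.1 and 8610.2 in those of WT mice (CD43- first), 2.73-fold lower in dKO CD43- and 3.30-fold lower in dKO CD43+ cells. It was thus still detected in dKO cells, and Btg2 was detected on none of the arrays, so these probes do not by themselves establish the genotype. Whether they lie in the deleted parts is not stated in the files. The sorted cells carried B-lineage markers: 7, 6, 7 and 6 of the 7 measured (dKO CD43-, dKO CD43+, WT CD43-, WT CD43+) were detected, Pax5 being the marker missing in both CD43+ samples. CD43+ cells also carried markers of other cells, including all 7 T-cell markers and 10 of 11 NK-cell markers on both CD43+ arrays. The members' signals on the 4 arrays are shown in the plot of signal by gene.

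**Figure D1:**
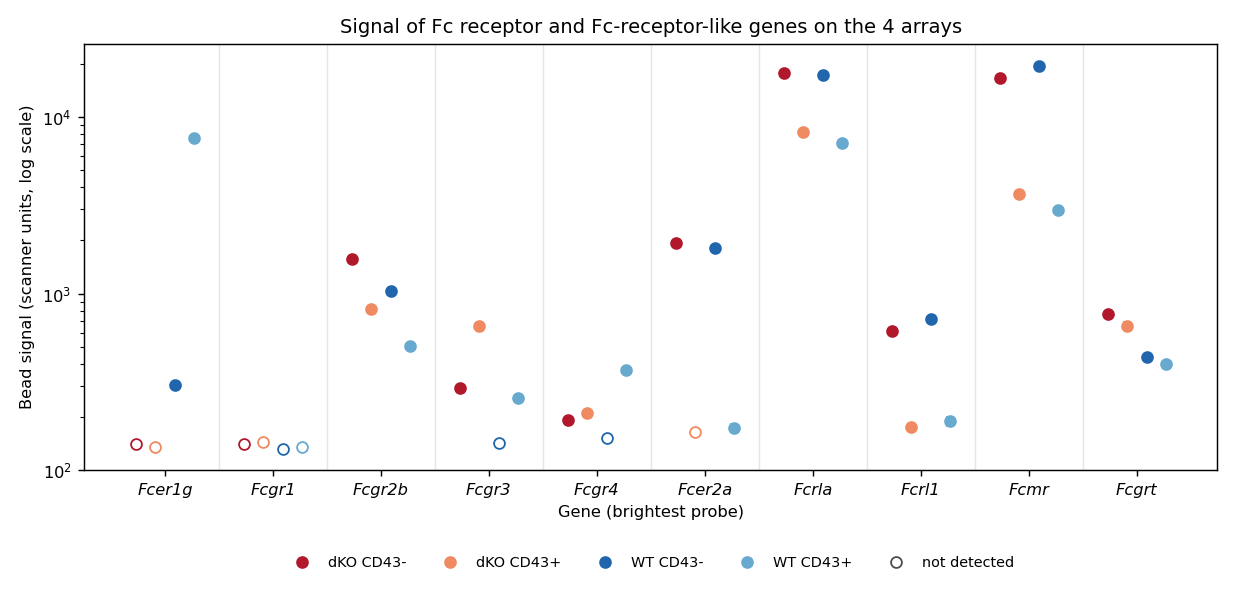
Mean bead signal (log axis, scanner units) of the brightest probe of each of the 10 genes on the 4 arrays, with bead SE bars that are mostly smaller than the symbols; open symbols mark signals not detected. Fcer1g is detected on the 2 WT arrays only, and Fcer2a, Fcrl1, Fcrla, Fcmr and Fcgr2b are brighter in CD43- than in CD43+ cells of both genotypes.

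Of the 10 genes, 9 were detected on at least 1 array. Fcgr1, encoding the high-affinity IgG receptor of monocytes and macrophages, was detected on none, with signals of 141.4, 143.8, 132 and 135 (dKO CD43-, dKO CD43+, WT CD43-, WT CD43+). Of the 19 probes, 18 were detected somewhere and 10 on all 4 arrays.

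The sequences upstream of 6 genes are shown because these genes divide by fraction below: Fcer1g, Fcgr3 and Fcgr4 were higher in CD43+ cells of WT marrow, whereas Fcer2a, Fcrla and Fcmr were higher in CD43- cells. Each is the 250 bases before the first annotated start in RefSeq (GRCm38.p6), 5′ to 3′ on the gene's strand. Capitals mark matches, on either strand, to the core of the PU.1 motif (GAGGAA), the octamer (ATTTGCAT), the core of the EBF1 motif (CCCNNGGG) or an E-box bound by E2A (CAGGTG); no match overlapped another.
Fcer1g (chr1:171234350-171234599, minus strand): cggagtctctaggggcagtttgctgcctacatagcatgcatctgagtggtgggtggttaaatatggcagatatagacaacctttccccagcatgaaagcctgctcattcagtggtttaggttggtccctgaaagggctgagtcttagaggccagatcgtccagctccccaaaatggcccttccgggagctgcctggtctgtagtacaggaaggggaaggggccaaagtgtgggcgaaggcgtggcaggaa
Fcgr3 (chr1:171059404-171059653, minus strand): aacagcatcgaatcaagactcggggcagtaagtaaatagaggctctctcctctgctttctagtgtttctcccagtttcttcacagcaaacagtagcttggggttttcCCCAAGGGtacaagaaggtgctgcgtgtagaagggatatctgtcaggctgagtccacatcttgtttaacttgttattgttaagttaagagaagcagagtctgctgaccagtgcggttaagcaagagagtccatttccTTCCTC
Fcgr4 (chr1:171018676-171018925, plus strand): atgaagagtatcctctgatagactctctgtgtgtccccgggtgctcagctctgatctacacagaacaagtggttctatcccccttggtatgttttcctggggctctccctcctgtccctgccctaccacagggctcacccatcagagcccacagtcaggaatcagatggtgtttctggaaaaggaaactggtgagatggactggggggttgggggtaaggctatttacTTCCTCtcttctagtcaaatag
Fcer2a (chr8:3694175-3694424, minus strand): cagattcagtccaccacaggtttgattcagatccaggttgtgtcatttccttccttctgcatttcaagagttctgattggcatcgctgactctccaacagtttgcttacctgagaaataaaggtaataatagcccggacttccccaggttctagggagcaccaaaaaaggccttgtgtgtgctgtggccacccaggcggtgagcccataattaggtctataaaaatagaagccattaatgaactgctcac
Fcrla (chr1:170927584-170927833, minus strand): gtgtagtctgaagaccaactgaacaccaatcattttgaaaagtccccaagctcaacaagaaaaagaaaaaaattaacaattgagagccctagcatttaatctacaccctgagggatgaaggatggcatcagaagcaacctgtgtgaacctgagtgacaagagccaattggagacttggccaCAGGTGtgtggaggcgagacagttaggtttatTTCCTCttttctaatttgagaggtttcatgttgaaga
Fcmr (chr1:130865527-130865776, plus strand): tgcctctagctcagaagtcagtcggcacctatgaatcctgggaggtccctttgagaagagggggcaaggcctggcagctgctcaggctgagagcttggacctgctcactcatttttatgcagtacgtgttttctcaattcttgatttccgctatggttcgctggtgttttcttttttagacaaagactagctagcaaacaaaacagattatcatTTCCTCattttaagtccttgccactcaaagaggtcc
All 10 genes had a sequence in the table. The PU.1 core was found upstream of 6 of 10 genes (Fcgr1, Fcgr3, Fcgr4, Fcmr, Fcrl1 and Fcrla), against 23.3% of all 32851 upstream sequences. The EBF1 core was found upstream of Fcgr3 and Fcgrt (11.8% of all) and the E-box upstream of Fcrla (17.2% of all). The octamer was found upstream of 0 of 10 (1.6% of all). Counts of genes use the first start only, whereas the percentages are over sequences and not genes. A later start of Fcer2a had 2 matches to the E-box in the 250 bases before it. These matches only describe the letters, and their bearing on expression was not tested. The PU.1 core stood upstream of genes higher in CD43+ cells (Fcgr3, Fcgr4) and of genes higher in CD43- cells (Fcrla, Fcmr). The E-box stood upstream of Fcrla and of the later start of Fcer2a, both higher in CD43- cells, which is too few genes to describe a division.

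The comparison of CD43- with CD43+ cells sets later beside earlier B-cell stages by label. The CD43+ cells also carried markers of other cells (above), so it is not a comparison of B-cell stage alone. The 5 members of the B-cell program were higher in CD43- cells of both genotypes: Fcer2a, Fcrl1, Fcmr, Fcgr2b and Fcrla. The members of the activating myeloid and NK receptors, Fcer1g, Fcgr3 and Fcgr4, were lower in WT CD43- cells, and of these Fcgr3 was lower in dKO CD43- cells too. The same 4 arrays serve here and in the genotype comparison, so the values of the comparisons are not independent. At a threshold of 2-fold, 6 of 8 tested members differed in dKO cells (5 higher and 1 lower), against 16.6% of all 8495 tested genes (6.04% higher and 10.5% lower). In WT cells 8 of 9 did (5 higher and 3 lower), against 18.9% of all 8539 (7.83% higher and 11.1% lower). With bounds in place of values for genes that 1 array detected, the counts were again 6 and 8, against 13.4% of all genes in dKO and 14.8% in WT. The median log2 difference of the tested members was 1.17 in both genotypes, against 0.05 over all tested genes in dKO and 0.06 in WT. As the members were picked with these results known, nothing is read from those shares.

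On its brightest probe and as normalized here, Fcer2a had the highest log2 difference between CD43- and CD43+ cells of all tested genes in either genotype, in dKO against a signal that was not detected. That probe gave 1938.5 ± 58.1 in CD43- against 164.4 ± 6.38 (not detected) in CD43+ cells of dKO mice, and 1817.6 ± 51.8 against 174.3 ± 7.44 in those of WT mice (CD43- first, signal ± bead SE). Both CD43- arrays lay far above both CD43+ arrays, by at least 40.5-fold in dKO and by 37.5-fold in WT (log2 5.23, bead SE 0.22). Without background correction the log2 difference was 3.43 in dKO and 3.52 in WT, with an offset of 50 it was 4.57 and 4.51, and over the mean of detected probes it was 3.89 and 4.49. The other 2 probes were dimmer, with signals of 309.7 and 374 in dKO CD43- and 440.6 and 460.1 in WT CD43- cells, and were not detected in CD43+ cells. They put the difference at 4.28-fold or more and 5.72-fold or more in dKO, and at 8.93-fold or more and 9.48-fold or more in WT. Cr2, which encodes CD21, a complement receptor that also binds CD23, was likewise detected in CD43- cells only (249.9 in dKO and 225.6 in WT).

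Fcmr gave 16664.8 ± 376 in dKO CD43- against 3655.5 ± 126 in dKO CD43+ cells, and 19501.9 ± 576 in WT CD43- against 2961.9 ± 103 in WT CD43+ cells. The IgM receptor was thus 5.04-fold higher in dKO CD43- cells (log2 2.33, bead SE 0.0609) and 6.25-fold higher in WT CD43- cells (2.64, bead SE 0.0678). Fcrl1 gave 614.6 ± 22.6 in dKO CD43- against 175.3 ± 7.21 in dKO CD43+ cells, and 717.5 ± 27.2 in WT CD43- against 189 ± 11.2 in WT CD43+ cells, a difference of 10.3-fold in dKO and 10.1-fold in WT (log2 3.37 and 3.34, but 1.75 and 2.05 without background correction). Of its 2 other probes, one gave at least 8.2-fold in dKO and at least 14.8-fold in WT. The remaining one (3780241) was detected on the WT CD43- array only, at 170.2.

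Fcgr2b was detected on all 4 arrays by all 3 of its probes, and its values in the fractions stood close together over the probes. The brightest gave 1568.8 ± 49.8 in dKO CD43- against 820 ± 29.9 in dKO CD43+ cells, and 1035.2 ± 31.3 in WT CD43- against 504.1 ± 16.7 in WT CD43+ cells. The log2 differences between CD43- and CD43+ cells on the 3 probes were 1.14, 1.13 and 1.27 in dKO and 1.26, 1.21 and 1.31 in WT, so the inhibitory receptor was about as much higher in CD43- cells of either genotype.

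Fcrla was read by 4 probes, all detected on all 4 arrays. The brightest gave 17689 ± 502 in dKO CD43- against 8197.4 ± 271 in dKO CD43+ cells, and 17211.2 ± 540 in WT CD43- against 7116.8 ± 217 in WT CD43+ cells. On 3 probes the log2 differences between the fractions were 1.19, 1.19 and 1.20 in dKO and 1.17, 1.51 and 1.44 in WT. The dimmest probe (5220176) gave larger ones, 2.38 in dKO and 2.22 in WT. Fcgrt, in contrast, was within 2-fold in both genotypes (log2 0.37, bead SE 0.101, in dKO and 0.22, bead SE 0.11, in WT), as was B2m, which encodes the light chain that pairs with the neonatal receptor (-0.03 in dKO and 0.01 in WT).

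**Figure D2:**
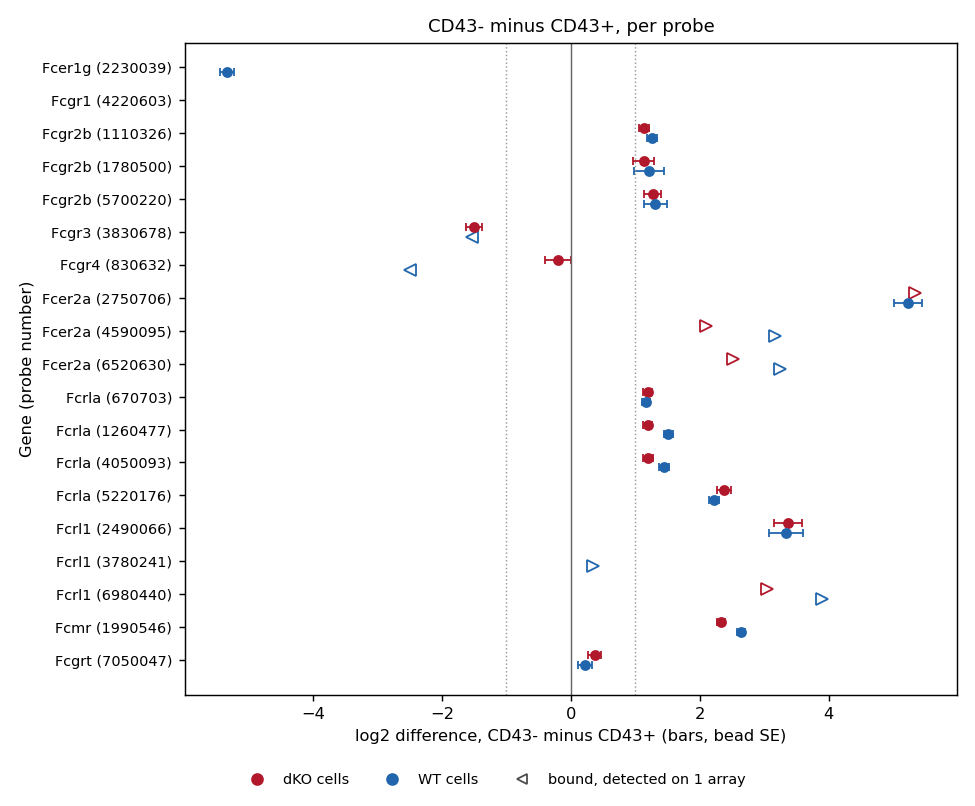
Log2 difference between CD43- and CD43+ cells (x axis) for each probe (y axis, probe number in brackets) in dKO and WT cells; bars are the bead SE, open triangles are bounds where 1 of the 2 arrays detected the probe, and dotted lines mark 2-fold. All drawn probes of Fcer2a, Fcrla, Fcrl1, Fcmr and Fcgr2b lie right of 0, and Fcer1g, at -5.33, is drawn for WT only.

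The activating side ran the other way. Fcer1g was not detected in dKO cells, with signals of 140.5 ± 6.72 in CD43- and 136 ± 5 in CD43+ cells, so no fold is given there. In WT it gave 302.1 ± 11.4 in CD43- and 7546.2 ± 314 in CD43+ cells, a 40.2-fold lower level in CD43- cells (log2 -5.33, bead SE 0.111). Fcgr3, encoding the low-affinity IgG receptor CD16, gave 292.4 ± 11 in dKO CD43- against 654.8 ± 26.4 in dKO CD43+ cells (2.84-fold lower). It gave 143.2 ± 5.78 (not detected) in WT CD43- against 255.5 ± 12.3 in WT CD43+ cells (at least 2.88-fold lower).

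Fcgr4, a receptor for IgG2 antibodies on monocytes and neutrophils in mice, gave 191.7 ± 7.04 in CD43- and 210.4 ± 6.37 in CD43+ cells of dKO mice, which differed by less than 2-fold (log2 -0.20, bead SE 0.197). In WT it gave 152 ± 5.46 (not detected) in CD43- against 369.8 ± 10.1 in CD43+ cells, at least 5.62-fold lower in CD43- cells. Without background correction the log2 differences between the WT fractions were -0.89 for Fcgr3 and -1.38 for Fcgr4, and that between the dKO fractions was -1.01 for Fcgr3. The WT CD43+ array was the highest of the 4 for Fcer1g and Fcgr4, and the dKO CD43+ array the highest for Fcgr3.

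NK-cell, T-cell and plasmacytoid dendritic cell markers were likewise lower in sum in CD43- cells, and neutrophil markers were so in WT only. Plasmacytoid dendritic cell markers (10 measured, 8 of 9 tested at least 2-fold lower in both genotypes) summed to 11957.5 in dKO CD43- against 64634.4 in dKO CD43+ cells, and to 7835.2 in WT CD43- against 57407.0 in WT CD43+ cells. T-cell markers (7 of 7 at least 2-fold lower in both) summed to 1419.0 against 12115.6 in dKO and to 811.3 against 9143.3 in WT. The summed normalized level of 11 measured NK-cell markers was 2165.7 in dKO CD43- against 17168.3 in dKO CD43+ cells, and 1326.5 in WT CD43- against 12806.3 in WT CD43+ cells. That of 12 monocyte and macrophage markers was 986.2 in dKO CD43- against 2971.2 in dKO CD43+ cells, and 976.2 in WT CD43- against 6242.5 in WT CD43+ cells. Of these, Cd14 and Itgam were among those detected on none of the arrays, and Lyz2 and Cd68 had the highest signals in CD43+ cells. C1qb (1.37 in dKO, 1.95 or above in WT) and C1qc (1.27 or above in dKO, 1.18 or above in WT) were higher in CD43- cells by log2 difference. Neutrophil markers (12 measured) summed to 9278.7 in dKO CD43- against 7121.4 in dKO CD43+ cells, and to 10990.9 in WT CD43- against 32998.8 in WT CD43+ cells. Of the mature B-cell markers other than the members, 8 of 9 were at least 2-fold higher in CD43- cells of both genotypes, led in dKO by Ms4a1 (at least 3.76 on the log2 scale), Cd40 (3.90), Ccr6 (3.79) and Cnr2 (3.55). The part of these cell types in the members' differences was not tested.

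Downstream of the receptors, the genes also divided by fraction. Of 17 tested kinases, adaptors and lipases of ITAM receptors, 2 were at least 2-fold higher and 5 lower in dKO CD43- cells (median log2 difference -0.15), and of 18 in WT, 2 were higher and 6 lower (-0.01). The 2 higher ones in both genotypes were the kinase genes Syk (1.62 in dKO, 1.77 in WT) and Blk (1.64 and 1.89), named here after their values were seen. The lowest were Fgr (-3.09 in dKO), Lat (-2.74), Zap70 (-2.70) and Fyn (-2.56), kinases and an adaptor of myeloid, T and NK cells. In the authors' deposited table Fyn was at -0.20 in dKO and -0.68 in WT, so its place there is not kept. Of 8 tested negative regulators, Dok3, an adaptor that recruits SHIP-1 in B cells, was higher in CD43- cells (2.19 in dKO, 1.99 in WT), and Dok2 was lower (-3.48 or below in dKO and -3.89 or below in WT). Of 7 measured signalling chains and adaptors other than Fcer1g, 6 were at least 2-fold lower in CD43- cells of both genotypes, Cd247 not at its bound (Tyrobp -3.66 in dKO and -4.10 in WT), and Cd79b, the B-cell receptor chain, was higher (1.43 and 1.54).

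The comparison of dKO with WT cells bears on how the genes differ where Btg1 and Btg2 are deleted. Fcer1g was detected in neither dKO fraction and in both WT fractions, Fcgr3 was higher in dKO in both fractions, and Fcgr4 was lower in dKO CD43+ cells. The B-cell members were within 2-fold on their brightest probes. In CD43+ cells 3 of 9 tested members differed at least 2-fold (1 higher and 2 lower), against 3.71% of all 8631 tested genes (1.71% higher and 1.99% lower), and the count was 3 with bounds too, against 2.61%. In CD43- cells 3 of 9 did (2 higher and 1 lower), against 6.18% of all 7944 (3.61% higher and 2.57% lower), and 2 of 9 with bounds, against 3.56%. Nothing is read from these shares either. The medians of the tested members were -0.13 in CD43+ and -0.10 in CD43- cells, against 0.04 and 0.01 over all tested genes. The CD43- and CD43+ values come from separate pairs of arrays.

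For Fcer1g the signals of 136 in dKO CD43+ against 7546.2 in WT CD43+ cells gave a level at least 209.7-fold lower in dKO as normalized here. The size depends on the treatment of background: the log2 difference of -8.56, with the undetected signal at its value, was -5.96 without background correction and -7.22 with an offset of 50. Fcer1g was the lowest of all 8631 tested genes by log2 difference. In CD43- cells, 140.5 in dKO against 302.1 in WT cells gave at least 4.07-fold lower in dKO, and the log2 difference of -3.20 was -1.28 without background correction. In the authors' deposited table the difference was -10.44 in CD43+ and -4.95 in CD43- cells. One probe read the gene, and whether it binds the dKO transcript as well as the WT one was not tested.

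The level of Fcer1g was set beside that of other chains and cells. Tyrobp, which encodes DAP12, the other ITAM adaptor shared by myeloid and NK receptors, gave 8104.9 in dKO CD43+ against 6524.1 in WT CD43+ cells (log2 -0.03, bead SE 0.0907), a value named here after it was seen. Of the 7 measured chains and adaptors, 0 differed at least 2-fold in dKO CD43+ cells (median 0.42), with Cd3d at 0.79, Cd3g at 0.75, Hcst at 0.56 and Cd247 at 0.42. Of 6 measured receptors known to pair with the FcR gamma chain, Klrb1c (0.44), Ncr1 (0.35) and Oscar (-0.18 or below) were tested in CD43+ cells and none reached 2-fold, while Clec4d, Clec4e and Clec4n were detected on no array. Neutrophil markers were lower in dKO CD43+ cells in 11 of 11 tested cases, 7 of them at least 2-fold, with a median of -2.23 and the largest differences for Lcn2 (-2.89), Ngp (-2.79), Ltf (-2.62) and Retnlg (-2.52). Of 3 tested mast-cell and basophil markers 2 were at least 2-fold lower, Prss34 (-1.71 or below) and Hdc (-2.05 or below), while Mcpt8, Cpa3, Ms4a2 and Gata2 were detected on no array. Monocyte and macrophage markers went both ways in dKO CD43+ cells (median 0.12). Of 8 tested, 1 was at least 2-fold lower, Lyz2 (5.89-fold), and 2 were higher, Cx3cr1 (1.29) and Ms4a6c (1.45, or 0.87 at its bound). NK-cell markers lay above 0 in 10 of 10 cases (median 0.56) and plasmacytoid dendritic cell markers had a median of 0.10. In CD43- cells, where Fcer1g was also lower in dKO, 0 of 10 tested neutrophil markers reached 2-fold (median -0.36, 9 below 0 and 1 above). Tyrobp was at 0.41 there, and 1 of 3 tested mast-cell and basophil markers was at least 2-fold lower, 0 with bounds. The part of these cell types in the level of Fcer1g was not tested.

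Fcgr3 gave 654.8 ± 26.4 in dKO CD43+ against 255.5 ± 12.3 in WT CD43+ cells, 3.13-fold higher in dKO (log2 1.65, bead SE 0.153). In CD43- cells it gave 292.4 ± 11 in dKO against 143.2 ± 5.78 (not detected) in WT cells, at least 3.18-fold higher in dKO. In the authors' deposited table the differences were 1.78 and 4.13, and without background correction they were 1.08 and 0.97 (CD43+ first). Only 9 of 8631 tested genes had a higher log2 difference in CD43+ cells. Beside it, the median of the NK-cell markers was 0.56 in CD43+ cells and 0.05 in CD43- cells. In CD43- cells 1 of 4 tested NK-cell markers was at least 2-fold higher and 1 lower, with undetected signals at their value. Plasmacytoid dendritic cell markers had a median of 0.10 in CD43+ cells, with 0 of 9 at 2-fold. In CD43- cells 4 of 8 of them were at least 2-fold higher in dKO (median 1.16). Monocyte and macrophage markers went both ways in CD43+ cells (median 0.12, or -0.14 with bounds), with Lyz2 at -2.56 and Csf1r at -0.84, against Cx3cr1 at 1.29 and Ms4a6c at 0.87 or above, and had a median of 0.07 in CD43- cells. The part of these cells in the level of Fcgr3 was not tested. The gene is read by 1 probe, and Fcgr2b and Fcgr4 are close paralogs whose transcripts that probe may not separate fully.

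Fcgr4 gave 210.4 ± 6.37 in dKO CD43+ against 369.8 ± 10.1 in WT CD43+ cells, 3.90-fold lower in dKO (log2 -1.96, bead SE 0.124). In CD43- cells it gave 191.7 ± 7.04 in dKO against 152 ± 5.46 (not detected) in WT cells, at least 1.25-fold higher in dKO. The lower level in dKO CD43+ cells thus stood beside a small difference the other way in CD43- cells, as WT CD43+ cells had the highest signal and WT CD43- cells none detected. Neutrophil markers were also lower in dKO CD43+ cells (above), and their part was not tested. The authors' deposited table gave -2.31 in CD43+ and 1.78 in CD43- cells, and without background correction the values were -1.02 and 0.28.

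Fcgr2b was higher in dKO on 2 of its 3 probes, by 0.43 (bead SE 0.0888) and 0.52 (0.17) on the log2 scale in CD43+ cells and by 0.31 (0.0705) and 0.48 (0.133) in CD43- cells. Its dimmest probe gave 0.08 and 0.00. Fcgrt gave 763.6 ± 30.7 in dKO CD43- against 435.5 ± 19.2 in WT CD43- cells (log2 0.68, bead SE 0.114) and 659.4 ± 27.2 in dKO CD43+ against 398.2 ± 12.2 in WT CD43+ cells (0.52, bead SE 0.0976). Both dKO arrays were above both WT arrays for Fcgrt, within 2-fold, while its partner B2m was at 0.16 in CD43- and 0.21 in CD43+ cells.

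The B-cell members Fcmr, Fcrl1 and Fcer2a lay below 0 in dKO on their brightest probes; for Fcmr and Fcer2a the sign turned under median scaling in some comparisons. Fcmr was at -0.42 (bead SE 0.054) in CD43- and -0.10 (0.0734) in CD43+ cells. Fcrl1 was at -0.60 (0.0943) and -0.63 (0.328), and its probe 6980440 at -0.89 in CD43- cells. Fcer2a was at -0.24 (0.064) in CD43- cells on its brightest probe, but at -1.10 (0.182) and -0.76 (0.0986) on the others, so 1 of its 3 probes passed 2-fold. In CD43+ cells the brightest Fcer2a probe, detected in WT only, was at -0.35 or below. The markers of mature B cells other than the members had a median of -0.04 in CD43- cells, with 0 of 9 at 2-fold.

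The 4 probes of Fcrla gave different answers on genotype. On 3 of them the log2 difference between dKO and WT lay between -0.13 and 0.01 in CD43+ cells and between -0.31 and -0.10 in CD43- cells. The probe 5220176 gave 476.3 ± 21.6 in dKO CD43+ against 782.4 ± 26.4 in WT CD43+ cells (-1.40, bead SE 0.106) and 1818.4 ± 66.4 in dKO CD43- against 3269.7 ± 96.4 in WT CD43- cells (-1.24, bead SE 0.072). Both values lay beyond 2-fold, where the other 3 probes stood near 0. Which transcript variants each probe reads is not given in the files, and the cause of the gap was not tested.

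**Figure D3:**
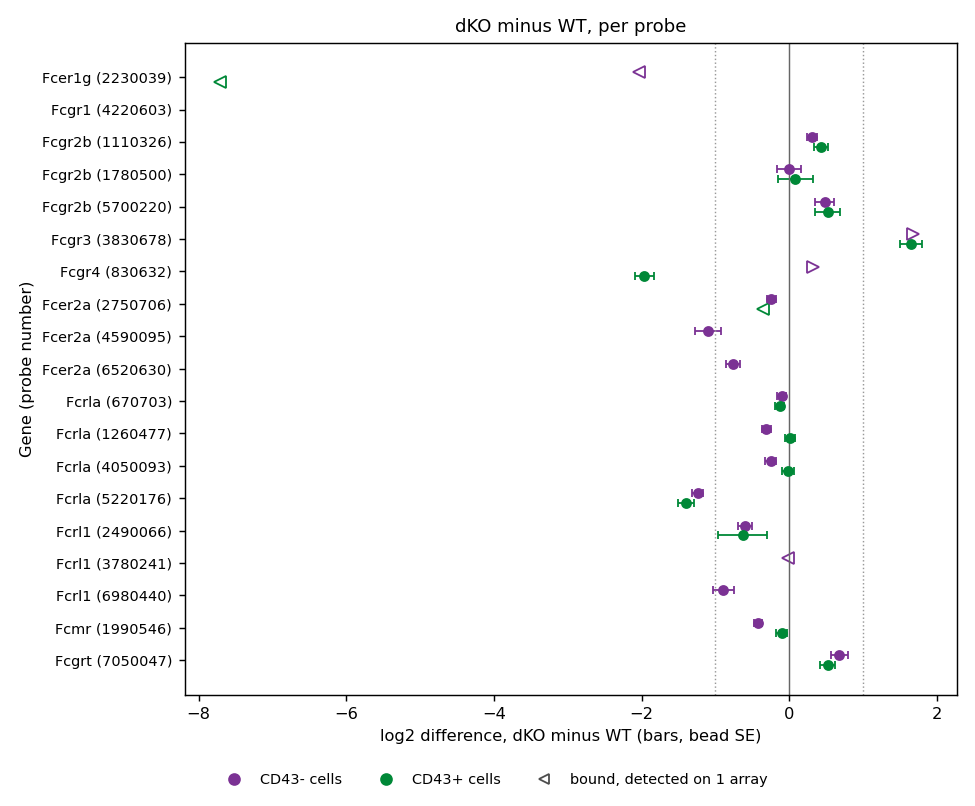
Log2 difference between dKO and WT (x axis) for each probe (y axis, probe number in brackets) in CD43- and CD43+ cells; bars are the bead SE, open triangles are bounds, and dotted lines mark 2-fold. Fcer1g lies far left at bounds of -2.03 and -7.71, Fcgr3 lies right in both fractions, and 1 of 4 Fcrla probes lies left of the others.

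The genes downstream of Fc receptors were mostly within 2-fold between the genotypes. Of 18 tested ITAM signalling genes 0 differed at least 2-fold in CD43+ cells (median -0.06), where Pik3r1 (0.75), a subunit of PI3-kinase, and the kinase genes Fgr (0.63) and Fyn (-0.63) had the largest differences, Fyn being at 0.13 in the authors' deposited table. In CD43- cells 1 of 17 did, Lat (1.01, or 0.28 at its bound), beside Vav3 (0.85) and Pik3r1 (0.64), with a median of -0.04. Of the negative regulators 0 of 8 reached 2-fold in CD43+ cells (median 0.01), with Cblb at 0.92, Dok1 at 0.74, Dok3 at -0.68 and Dok2 at -0.35. In CD43- cells 0 of 7 did (median 0.21), with Ptpn6, encoding the phosphatase SHP-1, at -0.54, Dok1 at 0.51, Dok3 at -0.48 and Inpp5d, encoding SHIP-1, at 0.33. Other immunoglobulin receptors and partners were measured by 10 genes, of which Ms4a2, Fcrls, Fcamr, Pigr and Adam10 were detected on no array, and 0 of 3 in CD43+ and 0 of 4 in CD43- cells reached 2-fold.

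**Figure D4:**
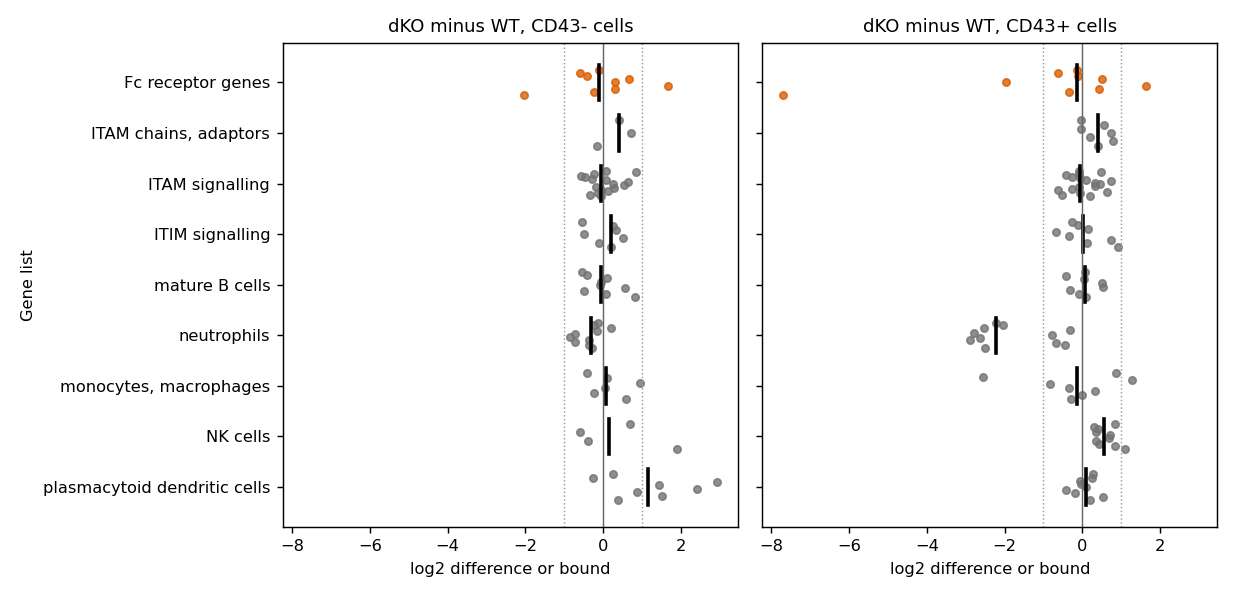
Log2 difference between dKO and WT (x axis), or its bound where 1 array detected the gene, for each tested gene of 9 lists (rows) in CD43- and CD43+ cells; black bars are list medians and dotted lines mark 2-fold. The Fc receptor genes spread more widely than the signalling lists around a median near 0, but they were chosen with earlier results known, so nothing is read from this. Neutrophil markers lie left of 0 in CD43+ cells.

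Of the 10 members, 6 lie on chromosome 1, the chromosome of Btg2: Fcrla, Fcgr2b, Fcgr4, Fcgr3 and Fcer1g near each other, in this order, and Fcmr 124 detected genes away. The distance of Btg2 from these genes was not measured, so a shared chromosome does not place them beside it. The values of the 25 detected genes nearest to Fcer1g on each side were set beside those of the members. Of these neighbours, without the members, 7 of 45 tested genes differed at least 2-fold in CD43+ cells (15.6%, against 3.71% of all tested genes) and 6 of 39 in CD43- cells (15.4%, against 6.18%). At least 2-fold in both fractions were Fcer1g, Fcgr3, Fcgr4 (in CD43- cells only without its bound), Uap1, Cd48, Slamf6 and Slamf9. With the members now counted, these were 7 of 43 genes (16.3%), against 1.18% of all 7613 tested in both. That share is not on the basis of those before it, as the members were chosen and the region was centred on Fcer1g. The neighbourhood was chosen with earlier results known, so these shares describe the region and are not tested.

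The differences went both ways within the region. Cd48, encoding a ligand of the SLAM family of lymphocyte receptors, was not detected in dKO cells (144.1 in CD43- and 169.1 in CD43+) and gave 334.3 and 322.4 in WT cells, at least 4.80-fold lower in dKO CD43- and at least 5.50-fold lower in dKO CD43+ cells. Slamf6, a receptor of that family, was 2.27-fold higher in dKO CD43- and 3.11-fold higher in dKO CD43+ cells. Uap1, an enzyme of UDP-N-acetylglucosamine synthesis, was 2.86-fold and 2.62-fold lower in dKO (CD43- first), and Slamf9 2.08-fold and 2.41-fold lower. Sdhc, a gene next to Fcer1g in this order, was within 2-fold, at 0.51 in CD43- and 0.17 in CD43+ cells, and was chosen for its position. Whether the probes of these genes bind transcripts of the dKO mice as well as those of WT mice was not tested.

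**Figure D5:**
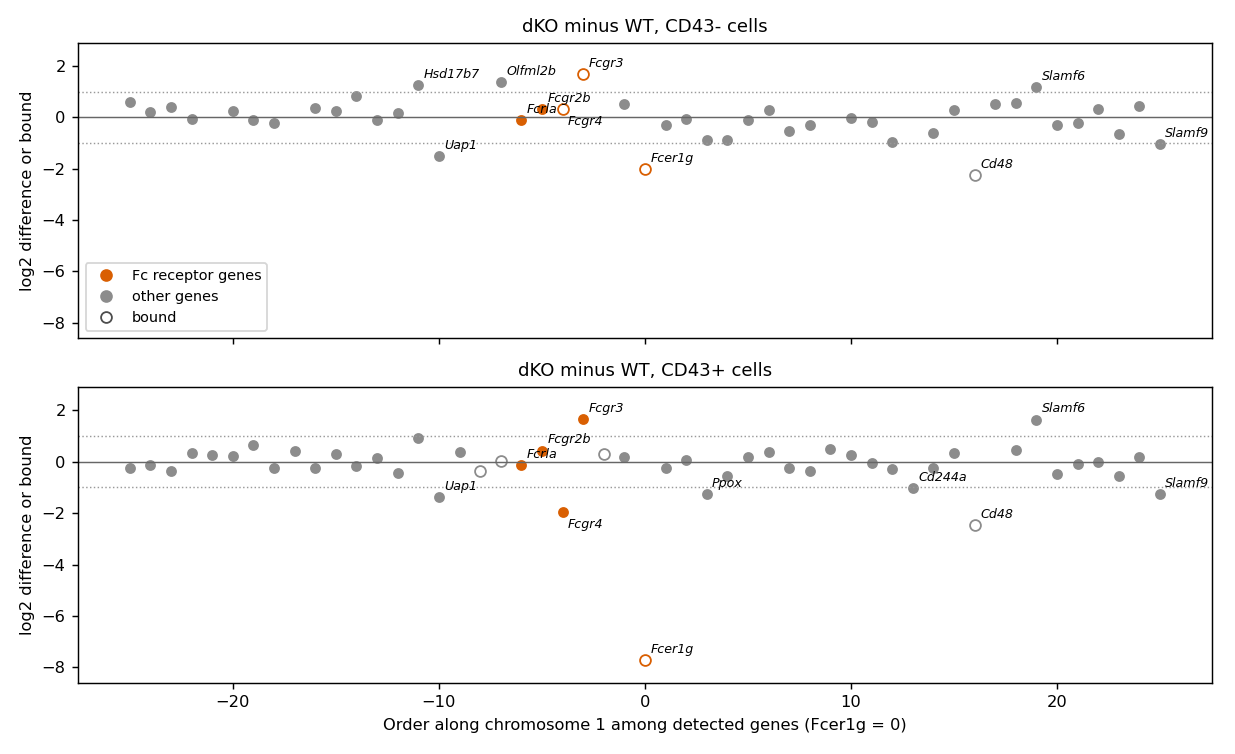
Log2 difference between dKO and WT (y axis) against the order of detected genes along chromosome 1 (x axis, Fcer1g at 0) in CD43- and CD43+ cells; orange symbols are Fc receptor genes, open symbols are bounds, and dotted lines mark 2-fold. Differences past 2-fold in both directions stand among neighbours within 2-fold, and Fcer1g has the lowest value in CD43+ cells.

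The genes whose profile over the 4 arrays was nearest to that of 3 members were sought among 8478 other detected, named genes, by the Euclidean distance between mean-centred log2 values. No gene came near Fcer1g: the closest were the neutrophil and macrophage genes Lcn2 and Lyz2 (4.71 each) and Ngp (4.73). For Fcgr3 the nearest were Sec24d (0.87), Usp2 (1.01) and Sdc3 (1.07), each highest on the dKO CD43+ array and lowest on the WT CD43- array. For Fcer2a they were Klhl14 (1.23), Gh (1.30) and Prm1 (1.31), each high in CD43- and low in CD43+ cells of both genotypes. With 4 arrays, such likeness is a description.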

How the data were processed

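Total RNA of sorted cells was labelled as biotinylated cRNA and hybridised to Illumina MouseRef-8 arrays, 1 per group. The authors deposited a GenomeStudio 1.9.0 export without normalization, per the file headers: a mean bead intensity with its bead SD, bead number and detection score for each probe. That score is deposited as a fraction up to 1, and 1 minus the score served as the detection p. The authors also deposited log2 RMA values (made in ArrayStar, per the file headers); a second deposited log2 table equalled it, with column medians of 3.77, 3.79, 3.77 and 3.78 (dKO CD43-, dKO CD43+, WT CD43-, WT CD43+).

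Signals were background corrected and quantile normalized over the 4 arrays with neqc (limma 3.58.1, R 4.3.3; detection p, offset 16). The offset shrinks differences of dim genes. A gene was represented by its probe with the highest mean. A gene entered a comparison ("tested" in the text, without a statistical test) if either of its arrays detected it; where 1 array detected a gene, the difference is a bound against the higher of its own value and the lowest detected value there. Summed levels add normalized linear values. Of 18138 identifiers, 14300 matched a current RefSeq symbol (GRCm38.p6), 2885 a synonym, and 953 kept the file's name. The bead SE on the log2 scale follows the corrected signal. Steps were tested on simulated data. For the normalization, only bright, detected probes were changed there, so the check does not cover signals near background.

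The members, lists and neighbours were chosen with earlier results of these data known. The named genes were all members, up to 4 of each list with the largest differences, the 3 nearest profiles and neighbours at 2-fold in both fractions. Members of lists without a value here were not analysed here. A few genes of the lists and neighbours are not reported here by name. No model across genes was fitted.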

Additional observations from a re-analysis of the deposited data

Results flagged for a closer look

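Fcgr4 was picked out because its genotype difference ran in opposite directions in the fractions, each larger than its bead error with undetected signals at their value: 1.02 on the log2 scale in CD43- cells and -1.96 in CD43+ cells. The difference between them was 2.98, and it was not tested. The value in CD43- cells rests on a WT signal that was not detected: at its bound it is 0.32, about its bead SE of 0.318, and the difference is then 2.29.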

How the results depend on the processing

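No paired analysis was possible because each group held 1 array and the labels give no replicate numbers that pair arrays; an additive fit of genotype and fraction was not run. Under 8 alternatives (no background correction, median scaling on all probes, an offset of 50, the authors' RMA table, the mean of detected probes, a detection p under 0.05, no detection filter and, chosen after seeing the data, median scaling on detected probes), all 20 member differences of at least 2-fold kept their sign and 16 stayed past 2-fold. The exceptions were Fcgr2b between the dKO fractions (0.995 without background correction), Fcgr4 and Fcgr3 in the genotype comparison of CD43- cells (lowest 0.28 and 0.97), and Fcgr3 between the WT fractions (smallest -0.89). A detection p under 0.05 and no detection filter change only which genes enter, so the members' values could not move under them. The mean of detected probes likewise could not move a gene read by 1 probe. Without background correction the count of members at 2-fold between dKO and WT CD43- cells was 1 in place of 3. Of the 15 smaller differences 4 changed sign under some setting, among them Fcmr (0.20) and Fcrla (0.09) in CD43+ cells with median scaling on all probes, which moved the median of all genes to 0.318 in CD43+ and 0.248 in CD43- cells. Over all genes the split of calls in CD43+ cells was 148 higher and 172 lower, 400 and 118 with that scaling and 89 and 318 with median scaling on detected probes. In CD43- cells it was 287 and 204, 472 and 93, and 235 and 235. Without background correction it was 11 and 38 in CD43+ and 50 and 34 in CD43- cells, and with an offset of 50 it was 39 and 76, and 114 and 59. Between the fractions the calls were 207 and 389 in dKO and 247 and 425 in WT without background correction, against 513 and 896, and 669 and 946. Signals near background, such as those of Fcgr3, Fcgr4 and Fcer2a in their dim samples, limit what the arrays can show.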
